A study of Mus musculus with 12 samples.

Results

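NRF2, the transcription factor encoded by Nfe2l2, its inhibitor Keap1 and 8 antioxidant genes known as NRF2 targets (Gclc, Gclm, Gsr, Srxn1, Txnrd1, Osgin1, Nqo1 and Hmox1) were followed in 12 mouse liver transcriptomes. The 10 genes were taken by name from the 48440 genes of the deposited tables, and all 10 passed the filter on low counts. Poly(A) RNA was sequenced from livers of male C57BL/6 mice aged 8 weeks, kept on chow with 12 h of light a day. The 4 groups held 3 libraries each: transgenic mice with liver-specific E4BP4 overexpression (TG) at ZT14, wild type (WT) at ZT14, TG at ZT2 and WT at ZT2, where ZT counts hours from lights on. E4BP4, encoded by Nfil3, is a circadian transcriptional repressor that binds D-box elements. The labels state neither the promoter that drives the transgene nor that the libraries of a group come from separate animals, so p-values cover the spread between the deposited libraries and no more, which may be technical. Libraries of the same group differed pairwise beyond sampling noise, with chi-squares of 9.85 to 90.9 for each degree of freedom.

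NRF2 is held at a low level by KEAP1, an adaptor that presents it to a cullin ubiquitin ligase and that is modified by electrophiles and oxidants. Stabilised NRF2 pairs with small MAF proteins on antioxidant response elements and raises genes that make glutathione, reduce thioredoxin, detoxify quinones and break down heme. In liver these genes are known for their response to toxicants, and glutathione there is known to vary over the day.

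The sequence in which such an element would be read is shown for 3 targets that differ in how they varied with time of day: Osgin1, which had the largest time difference of the 10 genes, Srxn1 and Gclm. Each promoter spans 250 bases before to 50 bases after a RefSeq transcription start of GRCm38.p6, read 5′ to 3′ along the gene's strand. Capitals mark matches, on either strand, to TGACNNNGC or TGAGNNNGC, the letters of an antioxidant response element core. TGAGNNNGC was added to the search after these promoters had been read. The windows are chr8:119436897-119437196 for Osgin1, chr2:152105274-152105573 for Srxn1 and chr3:122245307-122245606 for Gclm, all on the + strand. The Osgin1 window lies within the gene as deposited, which begins at 119434124, so its RefSeq start is an internal one.
Osgin1: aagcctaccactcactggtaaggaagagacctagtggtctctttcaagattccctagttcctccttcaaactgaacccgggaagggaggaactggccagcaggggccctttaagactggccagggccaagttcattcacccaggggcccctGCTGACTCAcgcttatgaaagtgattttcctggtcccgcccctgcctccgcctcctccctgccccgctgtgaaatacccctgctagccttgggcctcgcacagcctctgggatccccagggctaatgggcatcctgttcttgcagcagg
Srxn1: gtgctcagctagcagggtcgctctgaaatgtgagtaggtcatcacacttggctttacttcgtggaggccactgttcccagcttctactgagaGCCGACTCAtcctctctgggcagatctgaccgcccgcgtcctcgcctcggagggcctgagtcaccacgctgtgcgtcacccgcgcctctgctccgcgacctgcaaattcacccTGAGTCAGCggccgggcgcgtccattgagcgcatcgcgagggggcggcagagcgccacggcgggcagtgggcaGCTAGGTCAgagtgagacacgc
Gclm: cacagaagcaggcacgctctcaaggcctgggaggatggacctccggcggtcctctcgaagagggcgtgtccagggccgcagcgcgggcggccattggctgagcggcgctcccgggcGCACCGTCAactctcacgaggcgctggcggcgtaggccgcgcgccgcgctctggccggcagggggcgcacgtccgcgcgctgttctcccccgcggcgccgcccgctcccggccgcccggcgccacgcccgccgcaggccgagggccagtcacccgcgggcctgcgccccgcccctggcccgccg

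The same 9 letters, TGAGTCAGC, stood at -45 in the Srxn1 promoter and, on the opposite strand, at -99 in the Osgin1 promoter, counted from the transcription start. The Gclm match, read as TGACGGTGC on the opposite strand, stood at -134. RefSeq promoters were matched for 7 of the 10 genes, all but Gclc, Hmox1 and Gsr, and gave 9 windows because Txnrd1 has 3. A match to either core was found in 5 of the 9 windows, those of Nfe2l2, Gclm, Osgin1, Srxn1 and 1 of Txnrd1, and in 27.8% of all 32817 promoters of the same length (12.4% for TGACNNNGC and 17.7% for TGAGNNNGC). TGACNNNGC was in the windows of Nfe2l2, Gclm, Srxn1 and 1 of Txnrd1, while that of Osgin1 held only TGAGNNNGC. Because TGAGNNNGC was added after these promoters had been read, the count for both cores is a description and no test. The E-box CACGTG, held by 7.15% of all promoters, and the D-box letters TTATGTAA (0.935%) and TTACGTAA (0.119%) were searched on both strands and were not in the 9 windows, which says only that these letters are not there.

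Libraries held between 16035121 and 23981021 gene reads. Expression is given as CPM, gene reads per 1000000 after TMM scaling, and a gene is said to have risen or fallen where edgeR's quasi-likelihood test, fitted to all 15244 genes that passed the filter and adjusted by Benjamini-Hochberg over them, gave an adjusted p below 0.05. Nfil3 had 62.6 to 93.9 CPM in the 6 TG libraries and 24.6 to 48.8 CPM in the 6 WT libraries, without overlap. The Nfil3 log2 fold change in that test was 1.34 (SE 0.21, edgeR adjusted p = 0.0306) at ZT14 and 0.81 (SE 0.21, edgeR adjusted p = 0.359) at ZT2. The liver label was matched by 6 hepatocyte markers, which summed to 64350 to 79140 CPM, and none of the 6 was at 0 everywhere. The clock gene Per2 had 90.3 to 124 CPM at ZT14 and 14.96 to 26.9 CPM at ZT2. Among the 2000 most variable genes, the second principal component, with 16.5% of the variance, separated 2 libraries, replicate 3 of TG at ZT14 and replicate 2 of TG at ZT2, and values without these 2 are given beside results that they touch. In bulk liver RNA, fewer cells of a type and less RNA per cell cannot be told apart.

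Levels of different genes were compared by the deposited TPM, which divides exon reads by exon length. Osgin1, an oxidative stress-induced growth inhibitor, and Gclc, the catalytic subunit of the rate-limiting enzyme of glutathione synthesis, were the most abundant, at medians of 208 and 175 TPM over the 12 libraries. Txnrd1, the cytosolic thioredoxin reductase, and Gclm, the modifier subunit that partners GCLC, followed at 86.2 and 81.0 TPM, and Gsr, glutathione reductase, at 62.6 TPM. Nfe2l2 at 29.7 TPM, Keap1 at 28.4 TPM, Srxn1 (sulfiredoxin, which repairs overoxidised peroxiredoxins) at 23.5 TPM and Hmox1 (the inducible heme oxygenase) at 20.4 TPM lay close together. Nqo1, a quinone reductase that is a standard readout of NRF2 activity, was lowest at 4.57 TPM, with 3.35 to 7.30 TPM across libraries. The order of neighbours held in 12 of 12 libraries between Gclc and Txnrd1, Gclm and Gsr, Gsr and Nfe2l2, and Hmox1 and Nqo1. It did not between Osgin1 and Gclc (7 of 12), Txnrd1 and Gclm (10 of 12), Nfe2l2 and Keap1 (5 of 12), Keap1 and Srxn1 (9 of 12) or Srxn1 and Hmox1 (7 of 12). Only 34.7 to 36.7% of Gclm reads and 65.0 to 71.9% of Keap1 reads mapped uniquely, so levels of both are uncertain. In Gsr, 46.7 to 56.8% of gene reads were intronic, the most of the 10 genes.

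**Figure D1:**
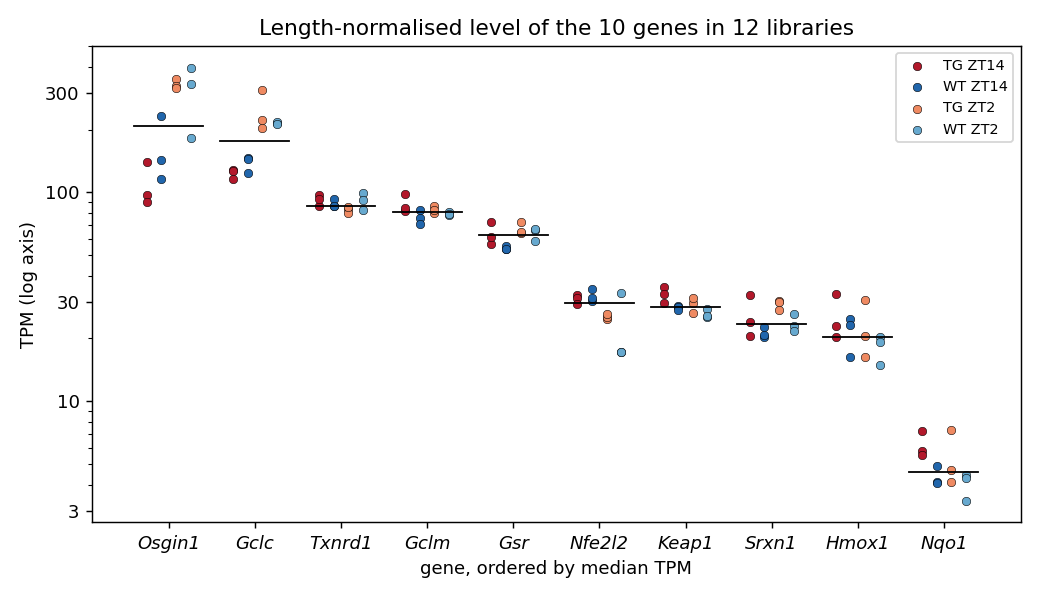
TPM (log axis) of the 10 genes in each library, ordered by median TPM, with the 4 groups as coloured points side by side and a line at the median of 12 libraries. The medians run between 208 TPM for Osgin1 and 4.57 TPM for Nqo1, and for Osgin1 and Gclc the ZT14 points lie low and the ZT2 points high, apart from some WT libraries of Osgin1.

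Time of day, and not genotype, gave the calls among the 10 genes. At ZT14, Gclc, Osgin1 and Gsr fell against ZT2 when both genotypes were averaged. This count of 3 of 10 compares with 22.5% of all tested genes called in either direction and 10.4% called lower. In TG livers 2 of 10 fell (Gclc and Osgin1), where 12.2% of genes were called and 5.52% were lower. In WT livers 2 of 10 fell (Gclc and Gsr), where 9.17% were called and 4.32% were lower. The median log2 fold change of the 10 genes at ZT14 against ZT2 was 0.0061 in TG and -0.14 in WT, against 0.0055 in TG and 0.0051 in WT over all genes tested.

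None of the 10 genes was called between TG and WT at ZT14, at ZT2 or in the mean of both times by edgeR, DESeq2 or limma-voom. All tested genes were called at shares of 0.0853% at ZT14, 0.0722% at ZT2 and 0.144% in the mean. At an unadjusted p below 0.05, 0 of 10 passed at ZT14 (background 6.91%), 0 at ZT2 (background 7.56%) and 3 in the mean (Nqo1, Srxn1 and Keap1; background 8.82%). The median log2 fold change of the 10 genes, TG over WT, was 0.11 at ZT14 and 0.15 at ZT2. Over all genes tested it was 0.0075 and -0.0030. Above 0 were 7 of 10 at ZT14 and 9 of 10 at ZT2, against 7867 and 7502 of all 15244 genes. By library, the median log2 deviation of the 8 targets from the WT mean of that time overlapped between genotypes. At ZT14 it was 0.0105 to 0.067 in TG and -0.064 to 0.026 in WT. At ZT2 it was 0.031 to 0.22 in TG and -0.099 to 0.095 in WT, highest in TG replicate 2, which stood apart. TG libraries lay wholly above WT libraries for Keap1, Nqo1 and Gsr at ZT14, where 6.12% of all tested genes did so. At ZT2 they did for Keap1 and Srxn1, where 6.25% of genes did so. None of the 10 lay wholly below at ZT14 or ZT2, where 6.32% and 5.86% of genes did so. A difference between genotypes in the time difference was called for 0 of 10 genes by edgeR, DESeq2 and limma-voom, with 0 of 10 at an unadjusted p below 0.05, where 0.00656% of all genes were called and 5.98% had such a p.

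**Figure D2:**
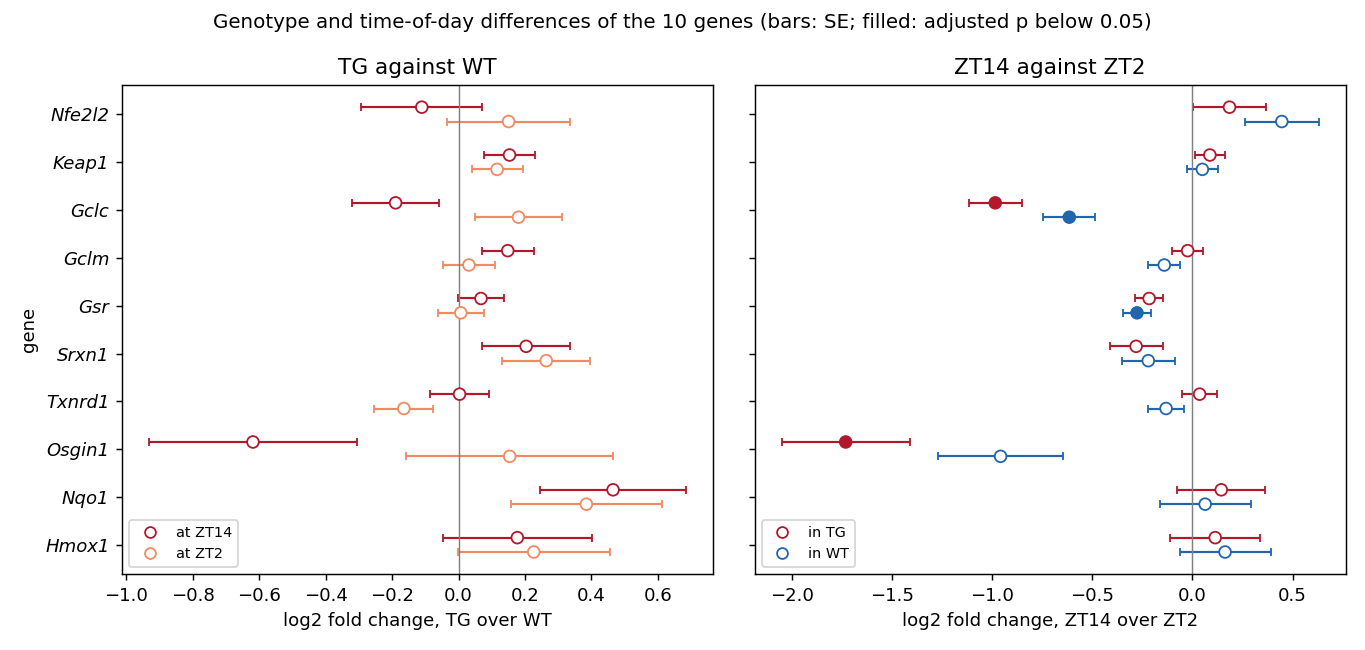
Log2 fold changes of the 10 genes, TG over WT (left, at ZT14 and at ZT2) and ZT14 over ZT2 (right, in TG and in WT); bars are SE and filled points have an adjusted p below 0.05. Filled points stand for Gclc in both genotypes, Osgin1 in TG and Gsr in WT; all genotype points are open.

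Nfe2l2 (chromosome 2, 75675513 to 75704641, - strand) had 54.0, 58.4 and 50.6 CPM in TG at ZT14 and 64.4, 53.9 and 57.7 CPM in WT at ZT14. It had 49.1, 43.8 and 50.4 CPM in TG at ZT2 and 35.9, 61.0 and 32.6 CPM in WT at ZT2. The WT libraries at ZT2 differed from each other: replicate 2 was at the level of the ZT14 libraries, and the other two were the lowest of the 12. The high value lay in exon reads, with 54.8 exon CPM in replicate 2, against 30.3 and 28.6 exon CPM in replicates 1 and 3, on the same TMM scale, and intron reads were 6.14, 5.55 and 4.03 CPM in replicates 2, 1 and 3. The same library had the highest Dbp of the ZT2 libraries, 11.7 CPM, where the others had 1.27 to 6.93 CPM. Of the other clock genes looked at, Per3 (1.77 CPM) and Ciart (0.32 CPM) were highest there among ZT2 libraries. Arntl (26.5 CPM) and Npas2 (7.47 CPM) were lowest there, and Per2 (16.8 CPM) was neither. Whether this is linked to the Nfe2l2 value was not tested. In TG the ZT14 and ZT2 libraries did not overlap, as in 15.8% of all genes in that direction.

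Nfe2l2 was not called between times. Its log2 fold change between ZT14 and ZT2 was 0.19 in TG (SE 0.18, adjusted p = 0.576), 0.45 in WT (SE 0.18, adjusted p = 0.162) and 0.32 in the mean (SE 0.13, adjusted p = 0.105; edgeR's quasi-likelihood test). Without WT at ZT2 replicate 2, the WT value was 0.78 (adjusted p = 0.00143) and the mean 0.48 (adjusted p = 0.00074), both called, and without replicate 3 of that group the WT value was 0.28 (adjusted p = 0.415). With all libraries and no filter on low counts the mean was also called (0.33, adjusted p = 0.0478). Between genotypes Nfe2l2 differed by -0.11 at ZT14 (SE 0.18, adjusted p = 0.916) and by 0.15 at ZT2 (SE 0.18, adjusted p = 0.892), which is within the spread of libraries. Without WT at ZT2 replicate 2 the ZT2 difference was 0.48, and without replicate 3 it was -0.016, neither called.

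Keap1 (chromosome 9, 21229730 to 21239332, - strand), the NRF2 inhibitor, stayed within a narrow range. It had 69.3, 62.7 and 62.9 CPM in TG at ZT14, against 61.3, 56.1 and 57.8 CPM in WT at ZT14. At ZT2 it had 59.0, 58.4 and 66.0 CPM in TG, against 56.4, 58.2 and 54.6 CPM in WT. The lowest TG library stood above the highest WT library at both times, though at ZT2 only by 58.4 against 58.2 CPM. By edgeR's quasi-likelihood test the TG over WT log2 fold change was 0.15 at ZT14 (SE 0.08, adjusted p = 0.706), 0.12 at ZT2 (SE 0.08, adjusted p = 0.772) and 0.13 in the mean (SE 0.05, adjusted p = 0.51). None of these was called, and the ZT2 value was 0.057 without TG replicate 3. Keap1 overlaps an antisense gene, Gm16754, with 7 to 47 reads per library, and reads in the shared part cannot be assigned because the strand setting of the counting is not given in the sources used here.

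Glutathione synthesis showed the clearest time difference, in its catalytic subunit. Gclc (chromosome 9, 77754535 to 77794485, + strand) had 191, 232 and 195 CPM in TG at ZT14 and 368, 480.2 and 374 CPM in TG at ZT2. In WT it had 258, 198 and 249 CPM at ZT14 and 356, 377 and 346 CPM at ZT2. Every ZT14 library was below every ZT2 library in both genotypes, a direction that 14.3% of all genes showed in TG, while 29.3% were separated in either direction in WT. By edgeR's quasi-likelihood test the time log2 fold change came to -0.98 in TG (SE 0.13, adjusted p = 0.000583), -0.61 in WT (SE 0.13, adjusted p = 0.011) and -0.80 in the mean (SE 0.09, adjusted p = 7.37e-05). The highest Gclc value of all was that of replicate 2 of TG at ZT2, and with both libraries that stood apart left out the TG value was -0.83 (adjusted p = 0.0057). Gclc was below its WT mean in TG at ZT14 (206 ± 22.5 against 235 ± 32.6 CPM) and above it in TG at ZT2 (407 ± 63.1 against 359.5 ± 15.8 CPM; SD, n = 3 each), and the groups overlapped at both times. Subtracting the WT from the TG time difference gave -0.37 (SE 0.18, adjusted p = 0.848, edgeR's quasi-likelihood test), and -0.20 with both libraries that stood apart left out.

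Gclm (chromosome 3, 122245557 to 122270732, + strand), the modifier subunit, moved little. It averaged 252 ± 18.9 CPM in TG at ZT14, 228 ± 12.5 CPM in WT at ZT14, 256 ± 8.35 CPM in TG at ZT2 and 251 ± 2.78 CPM in WT at ZT2 (SD, n = 3 each). In WT the ZT14 libraries, at 214 to 238 CPM, lay below the ZT2 libraries, at 248 to 254 CPM, and the difference did not pass the test. Gclm overlaps a pseudogene, Gm6061, and an opposite-strand transcript, Gm17494.

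Gsr (chromosome 8, 33652523 to 33698163, + strand), which regenerates reduced glutathione with NADPH, was lower at ZT14 by a small and even margin. It had 147, 138 and 140.3 CPM in TG at ZT14 and 171, 169 and 155 CPM in TG at ZT2. In WT it had 134, 138 and 134 CPM at ZT14 and 166, 163 and 163 CPM at ZT2. The times did not overlap in either genotype, a direction that 14.3% of all genes showed in TG, while 29.3% were separated in either direction in WT. By edgeR's quasi-likelihood test the time log2 fold change came to -0.22 in TG (SE 0.07, adjusted p = 0.0586), -0.28 in WT (SE 0.07, adjusted p = 0.0238) and -0.25 in the mean (SE 0.05, adjusted p = 0.00303). The WT call was lost when any 1 WT library was left out (adjusted p = 0.0536 to 0.0967), and also with library size alone or without a filter on low counts. In TG, Gsr was called by DESeq2 (adjusted p = 0.00649), and by edgeR with RLE size factors (0.0491), with a filter of 1 CPM in 3 libraries (0.0332) and with uniquely mapped reads (0.0372). In the other 19 alternatives, exon reads alone included, it was not called in TG. Its exon reads overlapped there, with 78.5 CPM in replicate 1 at ZT14 and 76.5 CPM in replicate 3 at ZT2. In intron reads Gsr was not called in the mean (adjusted p = 0.117, edgeR's quasi-likelihood test).

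**Figure D3:**
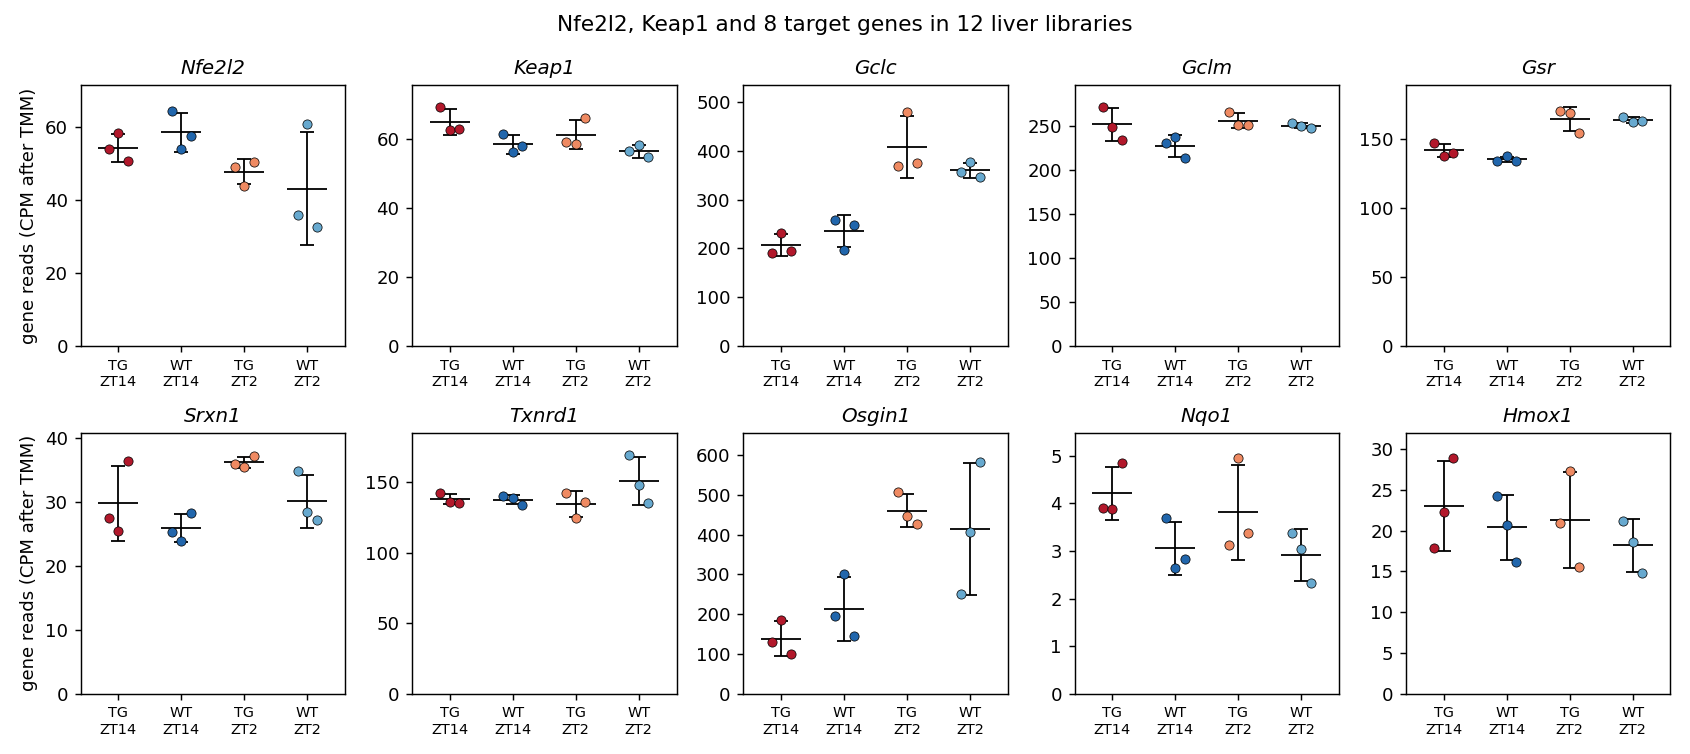
Gene reads (CPM after TMM) of Nfe2l2, Keap1 and the 8 targets in each library by group; points are libraries, lines are means and bars SD (n = 3). Gclc and Gsr are lower at ZT14 than at ZT2 in every library of both genotypes, Osgin1 in every TG library, and WT at ZT2 replicate 2 stands alone for Nfe2l2 at 61.0 CPM.

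Of the thioredoxin arm, Srxn1 (chromosome 2, 152105516 to 152111376, + strand) had 27.5, 25.5 and 36.4 CPM in TG at ZT14, against 25.4, 24.0 and 28.3 CPM in WT at ZT14. At ZT2 it had 36.0, 35.6 and 37.2 CPM in TG, against 34.9, 28.4 and 27.2 CPM in WT. TG replicate 3 at ZT14, a library that stood apart, was at the ZT2 level, and the other two TG libraries were among the WT values. The TG over WT log2 fold change was 0.20 at ZT14 (SE 0.13, adjusted p = 0.773), 0.26 at ZT2 (SE 0.13, adjusted p = 0.683) and 0.23 in the mean (SE 0.09, adjusted p = 0.51), all from edgeR's quasi-likelihood test. Without both libraries that stood apart these were 0.029 at ZT14, 0.28 at ZT2 and 0.15 in the mean. Between times it differed by -0.28 in TG (SE 0.13, adjusted p = 0.199), -0.22 in WT (SE 0.13, adjusted p = 0.361) and -0.25 in the mean (SE 0.09, adjusted p = 0.0749), none called by edgeR. Without TG at ZT14 replicate 3 it was called, at -0.45 in TG (adjusted p = 0.0278) and -0.34 in the mean (adjusted p = 0.00897).

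Txnrd1 (chromosome 10, 82859206 to 82897724, + strand), which keeps thioredoxin reduced, was not called in any comparison. It averaged 138 ± 3.58 CPM in TG and 137.5 ± 3.14 CPM in WT at ZT14, and 134 ± 9.03 CPM in TG and 151 ± 17.1 CPM in WT at ZT2 (SD, n = 3 each). The lowest and highest of the 12 values, 125 and 169 CPM, were both at ZT2, in TG replicate 2 and WT replicate 1. The ZT2 log2 fold change, TG over WT, was -0.16 (SE 0.09, adjusted p = 0.7, edgeR's quasi-likelihood test), and -0.076 without WT replicate 1.

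Osgin1 (chromosome 8, 119434124 to 119446256, + strand) had the largest time difference of the 10 genes. It had 129, 186 and 101 CPM in TG at ZT14 and 506, 448 and 428 CPM in TG at ZT2, so that the highest ZT14 library lay far below the lowest ZT2 library. In WT it had 195, 301 and 144 CPM at ZT14 and 251, 407.5 and 583 CPM at ZT2, where replicate 2 at ZT14 lay above replicate 1 at ZT2. By edgeR's quasi-likelihood test Osgin1 fell by 1.73 on the log2 scale in TG, a 3.32-fold difference (SE 0.32, adjusted p = 0.00439), and by 1.34 in the mean (SE 0.22, adjusted p = 0.00104). In WT the difference was -0.96 (SE 0.31, adjusted p = 0.0806), which did not pass. That call appeared with exon reads alone (adjusted p = 0.0476), without a filter on low counts (0.0156), without WT at ZT2 replicate 1 (0.0309) and without WT at ZT14 replicate 2 (0.0375).

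The lowest Osgin1 value was in TG at ZT14 replicate 3, and without both libraries that stood apart the TG value was -1.58 (adjusted p = 0.033, edgeR's quasi-likelihood test). The coefficient of variation over libraries was 31.5% in TG at ZT14, 37.5% in WT at ZT14, 8.81% for TG at ZT2 and 40.1% for WT at ZT2. Between genotypes at ZT14 Osgin1 differed by -0.62 on the log2 scale (SE 0.31, adjusted p = 0.708), with 101 to 186 CPM in TG and 144 to 301 CPM in WT. Leaving out WT replicate 2 gave -0.29 and leaving out TG replicate 2 gave -0.89, neither called. Subtracting the WT from the TG time difference gave -0.77 (SE 0.44, adjusted p = 0.887, edgeR's quasi-likelihood test), so a difference between the genotypes in this fall was not shown, and it ran between -1.10 without WT at ZT2 replicate 3 and -0.44 without WT at ZT14 replicate 2. About the group means of the 12 libraries, Osgin1 and Srxn1 deviated in opposite directions. The Pearson correlation of their log2 CPM was -0.87, given as a description, and was the most extreme among all pairs of the genes followed. Over the 12 libraries without removal of the group means it was 0.18. TG at ZT14 replicate 3, a library that stood apart, ranked 12 of 12 for Osgin1 and 2 for Srxn1. A correlation without that library is not given.

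Nqo1 (chromosome 8, 107388225 to 107403206, - strand) was the member with the largest genotype difference in the mean, from low counts. It had 3.90, 3.88 and 4.85 CPM in TG at ZT14, against 3.68, 2.65 and 2.83 CPM in WT at ZT14. At ZT2 it had 3.12, 4.95 and 3.37 CPM in TG, against 3.39, 3.04 and 2.33 CPM in WT. TG libraries lay above WT libraries at ZT14 and overlapped them at ZT2. By edgeR's quasi-likelihood test the TG over WT log2 fold change was 0.47 at ZT14 (SE 0.22, adjusted p = 0.706), 0.38 at ZT2 (SE 0.23, adjusted p = 0.733) and 0.42 in the mean (SE 0.16, adjusted p = 0.488), none called. Without both libraries that stood apart the values were 0.35 at ZT14, 0.16 at ZT2 and 0.25 in the mean (adjusted p = 0.808 for the mean).

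Hmox1 (chromosome 8, 75093591 to 75100596, + strand), which opens the heme ring and in liver is high in macrophages, had 17.9, 22.2 and 28.9 CPM in TG at ZT14, against 24.2, 20.8 and 16.2 CPM in WT at ZT14. At ZT2 it had 21.0, 27.4 and 15.6 CPM in TG, against 21.2, 18.6 and 14.8 CPM in WT. The groups overlapped at both times, and the 2 highest libraries were the TG libraries that stood apart. The TG over WT log2 fold change was 0.18 at ZT14 (SE 0.22, adjusted p = 0.887), 0.23 at ZT2 (SE 0.23, adjusted p = 0.863) and 0.20 in the mean (SE 0.16, adjusted p = 0.735), all from edgeR's quasi-likelihood test. Without both libraries these were -0.025 at ZT14, 0.0069 at ZT2 and -0.0091 in the mean.

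The same 2 libraries held the 2 highest values of both Nqo1 and Hmox1. TG at ZT2 replicate 2 ranked 1 of 12 for Nqo1 and 2 for Hmox1, and TG at ZT14 replicate 3 ranked 2 for Nqo1 and 1 for Hmox1. The Pearson correlation of their log2 CPM was 0.77 over 12 libraries and 0.52 over the other 10, given as a description. The summed level of 6 Kupffer cell and macrophage markers, all 6 detected, was also highest in these libraries, at 307 CPM in TG at ZT2 replicate 2 and 297 CPM in TG at ZT14 replicate 3. Of the 6 markers, 3 (Cd5l, Adgre1 and Marco) had their 2 highest values in these libraries, and Clec4f, Vsig4 and Cd68 did not. By group the sum ran 219 to 297 CPM in TG and 223 to 278 CPM in WT at ZT14, and 219.9 to 307 CPM in TG and 269 to 289 CPM in WT at ZT2. Summed erythroid markers (5 of 5 detected) were likewise highest there, at 547 and 414.5 CPM, with 238 to 354.5 CPM in the other 10 libraries. Of the 5, the globin genes Hbb-bs, Hbb-bt, Hba-a1 and Hba-a2 had their 2 highest values there. Alas2 did not, and TG at ZT14 replicate 3 held its lowest value, 83.2 CPM. The hepatocyte sum was highest in the same 2 libraries too, at 76830 and 79140 CPM, with at most 72310 CPM elsewhere. Of the 6 hepatocyte markers only Alb had its 2 highest values in them, and Cyp2e1 had its 2 lowest, 2819 and 3750 CPM. The part of these cells in the Nqo1 and Hmox1 values was not tested.

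**Figure D4:**
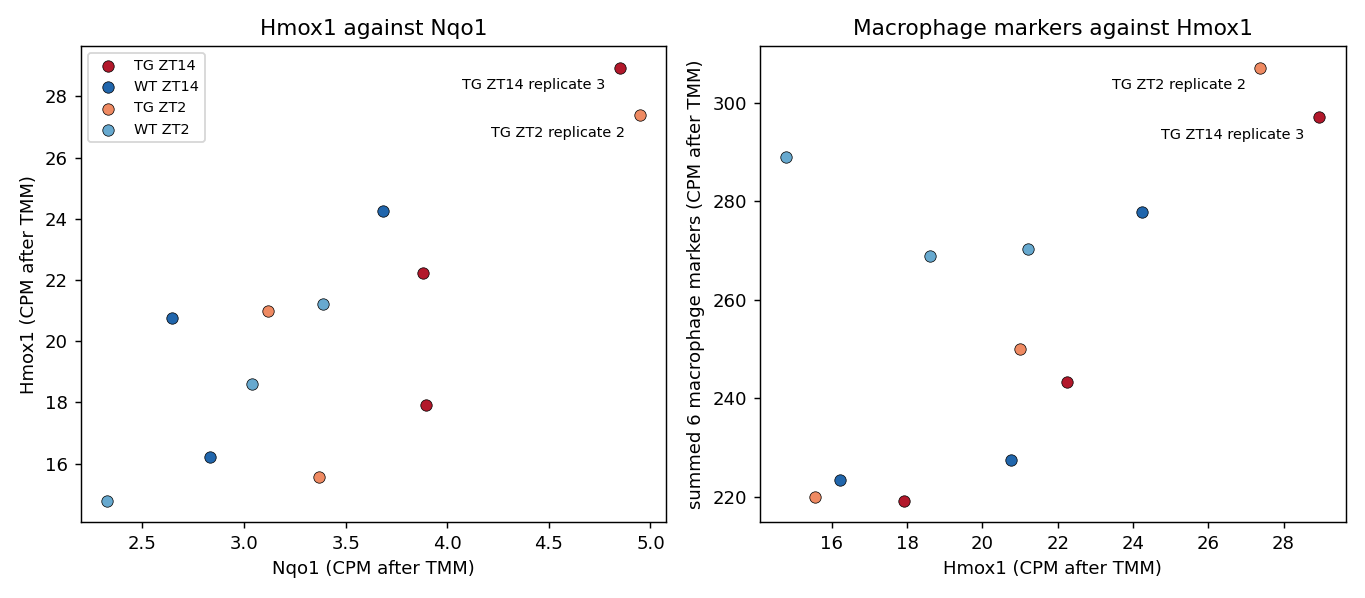
Left, Hmox1 against Nqo1 and right, the sum of 6 macrophage markers against Hmox1, all in CPM after TMM, with 1 point per library coloured by group. TG at ZT14 replicate 3 and TG at ZT2 replicate 2 lie at the top of both panels, with 28.9 and 27.4 CPM of Hmox1.

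The deposited tables also count intron reads, which come largely from unspliced RNA, in the same libraries. In a separate edgeR quasi-likelihood fit of 12380 genes, Osgin1 and Keap1 were called between times in the mean of both genotypes, 2 of the 9 genes tested, where 11.3% of all genes were called. Nqo1, with 1 to 11 intron reads per library, was not tested. Osgin1 had 26.5, 24.4 and 6.60 CPM of intron reads in TG at ZT14, on the TMM scale of total gene reads, and 74.5, 97.9 and 61.2 in TG at ZT2. In WT it had 29.3, 51.3 and 10.6 at ZT14 and 24.3, 23.6 and 121 at ZT2, so WT at ZT2 replicate 3 alone was high. Its intron log2 fold change was -1.49 in the mean (SE 0.44, adjusted p = 0.0426), against -1.33 in exon reads (SE 0.20, adjusted p = 0.000531).

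Gclc fell at ZT14 in exon reads and was not called in intron reads. Exon reads of Gclc were 158, 190.1 and 169 CPM in TG at ZT14 against 323.5, 433 and 327 in TG at ZT2, and 217, 170.3 and 213 in WT at ZT14 against 339, 325 and 318 in WT at ZT2. Intron reads of Gclc were 33.7, 41.8 and 25.6 CPM in TG at ZT14 against 44.3, 47.3 and 47.1 in TG at ZT2, and 40.8, 27.3 and 35.2 in WT at ZT14 against 16.98, 51.4 and 27.5 in WT at ZT2. The exon log2 fold change in the mean was -0.90 (SE 0.09, adjusted p = 2.15e-05) and the intron one -0.20 (SE 0.22, adjusted p = 0.614), all from edgeR's quasi-likelihood test. The difference between exon and intron values was not tested. Keap1 intron reads rose at ZT14 by 0.58 on the log2 scale (SE 0.14, adjusted p = 0.0173, edgeR's quasi-likelihood test). They numbered 65 to 86 per library at ZT14 and 30 to 55 at ZT2, and the antisense neighbour of Keap1 shares that region.

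**Figure D5:**
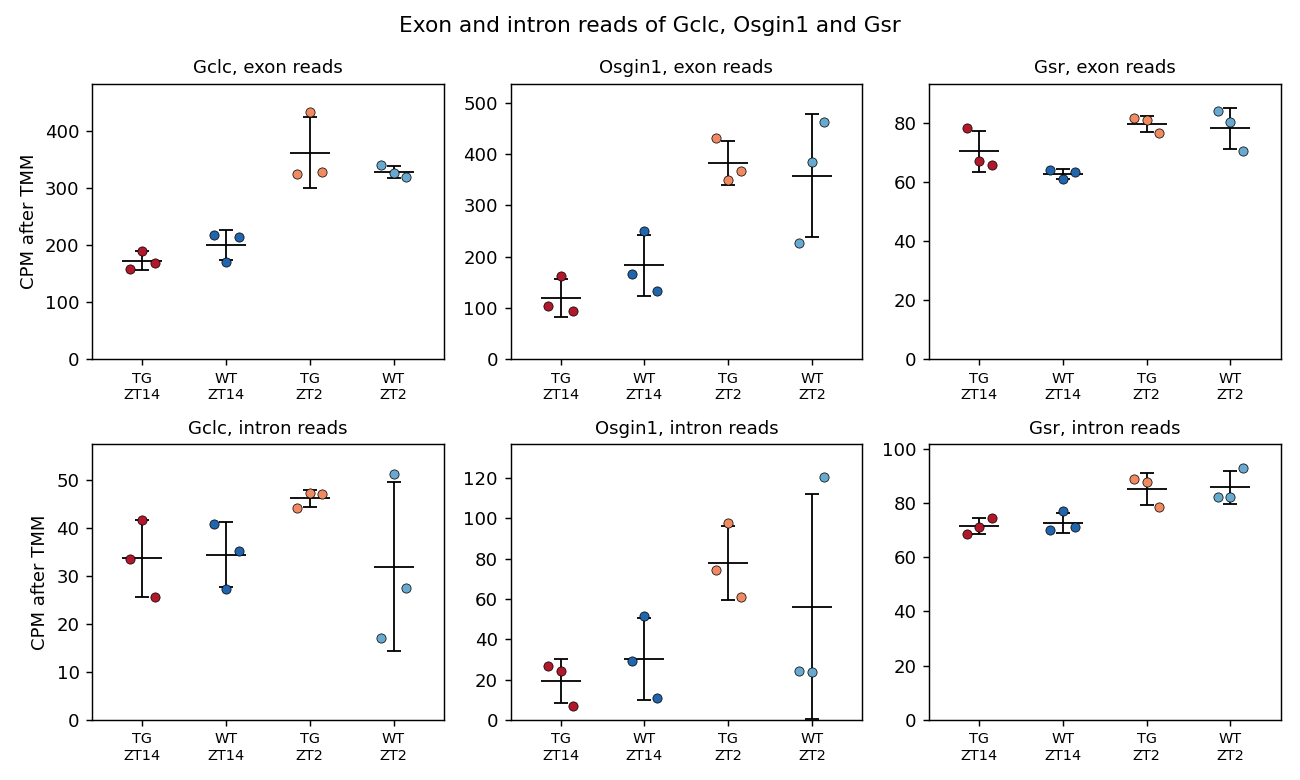
Exon reads (top) and intron reads (bottom), in CPM after TMM scaling of total gene reads, for Gclc, Osgin1 and Gsr in each library by group; points are libraries, lines means and bars SD (n = 3). Gclc exon reads are 158 to 217 at ZT14 and 318 to 433 at ZT2 without overlap, while its intron reads overlap between the times in WT and do not in TG.

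Genes that work with these 10 were counted from 6 lists chosen with earlier results of these data known. Between TG and WT, 1 gene of the 6 lists was called, Prdx5, a peroxiredoxin, which fell at ZT14 (log2 fold change -1.23, SE 0.12, adjusted p = 0.000606) and at ZT2 (-1.08, SE 0.12, adjusted p = 0.00215) in edgeR's quasi-likelihood test. Prdx5 shares its locus with the opposite-strand gene Trmt112, so its reads are uncertain, and the cause of its fall was not tested. Genes near it on the chromosome were not examined here, so its fall cannot be read as particular to antioxidant genes. Between times, in the mean of both genotypes, 1 of 12 tested NRF2 partners and regulators rose and 3 fell. Sqstm1, an autophagy receptor that binds KEAP1 and is itself an NRF2 target, had 285 to 300.5 CPM in TG at ZT14 against 405 to 445 CPM in TG at ZT2, and 241 to 255 CPM in WT at ZT14 against 389 to 432 CPM in WT at ZT2. Its time log2 fold change was -0.62 (SE 0.06, adjusted p = 1.08e-05), without overlap in either genotype.

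Among genes that supply NADPH, 4 of 7 rose at ZT14 and 1 fell in the mean of both genotypes, while 0 rose and 1 fell in TG, and 3 rose and 1 fell in WT. The cytosolic enzymes Me1, Pgd and Tkt had log2 fold changes of 0.96, 0.33 and 0.45, and H6pd, which makes NADPH in the endoplasmic reticulum, of -0.92 (SE 0.11, adjusted p = 0.000102, edgeR's quasi-likelihood test). Me1 was 355 to 466 CPM in WT at ZT14 against 95.9 to 177 CPM in WT at ZT2. In TG it was 134 to 307 CPM at ZT14 against 136 to 224 CPM at ZT2, where the times overlapped. The lowest TG value at each time was that of the library that stood apart. Without these 2 libraries, TG had 284 and 307 CPM of Me1 at ZT14 against 196 and 224 CPM at ZT2, without overlap. For Pgd the log2 fold change was 0.055 in TG (SE 0.08, adjusted p = 0.733) and 0.61 in WT (SE 0.08, adjusted p = 0.000816). The edgeR test of the difference between genotypes called none of the 7, with 2 at an unadjusted p below 0.05 (5.98% of all genes). Of 11 glutathione system genes, 2 rose and 3 fell. Cbs, which starts the route that turns homocysteine into cysteine, fell by 1.04 (SE 0.14, adjusted p = 0.000289), and Chac1, which degrades glutathione, fell by 1.65 (SE 0.38, adjusted p = 0.00827) from at most 4.03 CPM. Glrx (glutaredoxin) and Oplah (5-oxoprolinase) rose by 0.57 and 0.31.

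Of 17 conjugation, carbonyl reduction and export genes, 1 rose, the carbonyl reductase Cbr1 (0.62, SE 0.16, adjusted p = 0.0155), and 1 fell, the glutathione transferase Gstm4 (-0.81, SE 0.14, adjusted p = 0.00108, edgeR's quasi-likelihood test). Of 13 thioredoxin, peroxiredoxin, superoxide and catalase genes, 2 rose and 1 fell, and of 5 heme and iron genes none passed by edgeR, with 2 at an unadjusted p below 0.05. The called shares stand beside 22.5% of all genes called in that comparison. The 2 of 5 stand beside 5208 of all 15244 genes with an unadjusted p below 0.05.

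Genes with the most similar pattern were ranked by Pearson correlation of log2 CPM over the 12 libraries, among 9299 genes with a mean of at least 5 CPM. For Nfe2l2 they were Bri3, Simc1, Mpv17l2, Foxj2 and N4bp2l1, with correlations of 0.90, 0.90, 0.90, 0.90 and 0.89. For the mean of the 8 standardised targets they were Cd9, Tbc1d12, St3gal1, Apoh and Larp1, at 0.93, 0.93, 0.92, 0.91 and 0.91. All points share libraries and their depth, and such values are the extremes of many correlations.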

How the data were processed

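Liver RNA of 12 mouse libraries in 4 groups of 3 was read from 1 deposited table per library. The authors' counts of total, exon, intron and uniquely mapped reads per gene, and their TPM values, were used as named per the file headers; total gene reads equal exon plus intron reads. Builds mm10 and GRCm38 appear in the submitters' processing notes; aligner, annotation release and strand setting: not given in the sources used here. Groups follow the labels. The 10 genes, the gene lists and the tests were chosen with earlier results of these data known.

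The analysis of counts used edgeR 4.0.16 (R 4.3.3): filterByExpr (minimum count 10, minimum total 15) kept 15244 genes, TMM scaling was applied, and 1 quasi-likelihood model was fitted to all 12 libraries. The 7 contrasts were TG against WT at each time and in the mean, ZT14 against ZT2 in each genotype and in the mean, and the difference of the 2 time differences, TG minus WT. P-values were adjusted by Benjamini-Hochberg over all genes tested, with a threshold of 0.05; SE is the log2 fold change divided by the square root of the F statistic. Intron counts were fitted in the same way, separately. TPM was used for levels between genes, without a test, and exon and intron CPM of members use the TMM-scaled library sizes of total gene reads. The procedure was tested on simulated data. The changed genes were drawn at random from all genes tested, in a larger number than the genotype tests called in the real data. The shares below are thus not rates for these 10 genes, and the adjustment may have been easier to pass. Of genes changed 1.5-fold between genotypes, 26% were called at ZT14 and 22% at ZT2, and of those changed 1.25-fold, 4% at each time. For a 1.5-fold change in the difference between genotypes in time, 6% were called. Differences of this size are therefore mostly missed.

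Alternatives were other scalings, DESeq2 1.42.0, limma-voom (limma 3.58.1), other filters, unique or exon reads, a replicate block, only the 6 libraries compared, a threshold of 0.01 and leaving out libraries. Genes of the other lists were named by a rule: up to 4 per list with the smallest p over the 7 contrasts, with members given in all groups. The member contrasts whose fold changes are printed were picked after values were seen. Promoters are from RefSeq (GRCm38.p6). Coordinates are those of the deposited tables, and depth, at 16035121 to 23981021 gene reads, limits the low gene Nqo1 most.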

Additional observations from a re-analysis of the deposited data

How the results depend on the processing

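Over the 10 genes, the 7 comparisons and all alternatives that refit the data, 1580 values were recomputed at the threshold of 0.05. Of these 1503 kept their direction and their side of the threshold, 15 became called, 8 lost their call, 54 changed sign with no call under either setting, and none that was called changed sign. Among the fold changes printed above, sign changes were those of Nfe2l2 between genotypes at ZT2 (-0.016 to 0.48 when 1 library was left out, the lowest without WT ZT2 replicate 3) and of Hmox1 at ZT14 (-0.025 without both libraries that stood apart and -0.022 to 0.33 with 1 left out, the lowest without TG ZT14 replicate 3) and in the genotype mean (-0.0091 without both and 0.09 to 0.29 with 1 left out); the cause was not tested.

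The count of 2 members called between times in WT was 1 with library size alone and 0 at an adjusted p below 0.01, where Gclc and Gsr were lost, 3 with exon reads alone, and 1 to 2 when 1 library was left out, where the 2 were Gclc with Gsr, Osgin1 or Nfe2l2. The TG count of 2 was 3 with RLE size factors, DESeq2, the 1 CPM filter or uniquely mapped reads (with Gsr), and without TG ZT14 replicate 3 or both libraries that stood apart (with Srxn1). The mean count of 3 was 4 without a filter or without WT ZT2 replicate 2 (with Nfe2l2), and without TG ZT14 replicate 3 or both (with Srxn1). At the threshold of 0.05 all 8 lost calls were of Gsr in WT (adjusted p = 0.0536 to 0.128). The counts for genotype and for the difference between genotypes in time stayed at 0 under all alternatives run, DESeq2 and limma-voom included. Between genotypes at ZT14, DESeq2 called 21 of all genes higher and 30 lower, against 7 and 6 by edgeR. Its ZT2 calls were 38 higher with 18 lower, against 8 and 3 by edgeR. Of the other named genes, Cul3 lost its call in 9 alternatives, Mafg in 4, Txn2 in 11, Txnrd2 in 7 and Prdx6 in 1. Scaling moved the median of all genes by at most 0.064 on the log2 scale.

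Replicate numbers are shared by the groups, but same-numbered libraries did not deviate together (correlations of -0.25 to 0.15), and 2 of 12 libraries correlated best with their own number. With a replicate block the members called numbered 0 in each genotype comparison and for the difference between genotypes in time, 2 in WT, 2 in TG and 3 in the mean between times, as without it.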

Other observations

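Bach1, the repressor that competes with NRF2 for antioxidant response elements, had 33.3, 35.0 and 35.3 CPM in TG at ZT14, against 39.4, 67.4 and 40.7 CPM in WT at ZT14. At ZT2 it had 40.9, 41.3 and 35.1 CPM in TG, against 56.8, 41.0 and 47.3 CPM in WT. TG libraries lay below WT libraries at ZT14 and overlapped them at ZT2, and Bach1 was not called in either comparison (adjusted p = 0.627 at ZT14 and 0.732 at ZT2, edgeR's quasi-likelihood test). WT at ZT14 replicate 2 alone was high.

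Htatip2, an oxidoreductase known as an NRF2 target, had 34.5, 37.0 and 36.5 CPM in TG at ZT2, against 26.5, 28.6 and 19.6 CPM in WT at ZT2. The groups did not overlap, and the difference did not pass over all genes (adjusted p = 0.349, edgeR's quasi-likelihood test). At ZT14 it had 23.7, 25.4 and 30.9 CPM in TG, against 25.8, 22.8 and 24.5 CPM in WT, where the groups overlapped. Gstp1, a glutathione transferase, went the other way. Its TG over WT log2 fold change was -0.23 at ZT14 (SE 0.13) and -0.34 at ZT2 (SE 0.13), neither called by edgeR. Both genes belong to the 17 conjugation, carbonyl reduction and export genes. Of these, 6 were above 0 at ZT14 (median -0.11) and 15 at ZT2 (median 0.26). The cytosolic thioredoxin reductase Txnrd1 and its mitochondrial counterpart Txnrd2 were both detected, and in TG Txnrd2 had 22.5, 27.1 and 25.0 CPM at ZT14 against 30.9, 32.8 and 32.2 CPM at ZT2. In WT it had 26.1, 28.0 and 25.9 CPM at ZT14 against 28.2, 31.7 and 26.01 CPM at ZT2, where the times overlapped.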
